A study of Homo sapiens with 8 samples.

Results

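The 33 genes described here code for the sensors and transcription factors of the unfolded protein response (UPR) and for the chaperones, folding enzymes, translocon subunits and degradation factors of the endoplasmic reticulum (ER). They were chosen by symbol from knowledge of the pathway, with earlier results of these data known, and all 33 were among the 27946 symbols whose FPKM had been deposited (reads per length of the transcript, scaled to the depth of the library, so that levels can be compared between genes). RNA had been sequenced from EA.hy926, an immortalized human line made by fusing umbilical vein endothelial cells with cells of a lung carcinoma. The libraries were 2 of control cells, 3 of ΔE2 (DeltaE2 in the labels) and 3 of ΔSE12313-b (DeltaSE12313-b), the deletion lines being without enhancer E2 or without the neighbouring enhancer SE12313-b, both of the super-enhancer SE12313 on chromosome 16. Each deletion library is from 1 clonal line made with Cas9 and guide RNA complexes, so the effects of cloning and of the deletion cannot be told apart. All cells were grown in DMEM with fetal bovine serum and received no agent to provoke ER stress. The control carries neither deletion, and nothing in the labels says that both control libraries were separate cultures, so their spread may be technical.

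Proteins that enter the secretory pathway are folded in the ER by BiP (HSPA5), GRP94 (HSP90B1), the lectin chaperones calnexin and calreticulin and the protein disulfide isomerases. When unfolded proteins accumulate, 3 membrane sensors signal from the ER: IRE1α (ERN1) splices the XBP1 mRNA, PERK (EIF2AK3) phosphorylates the translation factor eIF2α and thereby favours translation of ATF4, and ATF6 is cut in the Golgi to release a transcription factor. Spliced XBP1 and cleaved ATF6 activate the genes of chaperones, translocon and ER-associated degradation (ERAD). In secretory and endothelial cells the response matches folding capacity to the load of secreted and membrane proteins.

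The libraries held between 12067420 and 19101018 reads. At least 6934 of them stood behind HSP90B1 in every library, and the lowest support among the UPR and chaperone genes tested was the 27 reads of SDF2L1 in 1 control library. A total of 13790 genes passed the minimum of 0.5 FPKM in at least 2 libraries, and 32 of the 33 genes were among them. DERL3, a derlin of secretory cells, was left out, with at most 1 read in any library. Summed over 1 transcript per symbol, reads came to 64.2% and 64.7% of the library in the controls, 70.0% to 73.3% in ΔE2 and 75.2% to 78.4% in ΔSE12313-b. This sum leaves out other transcripts and can count reads of overlapping genes more than once. Against the controls all genes tested had a median of 0.14 (ΔE2) and 0.27 (ΔSE12313-b) on the log2 scale. Changes are therefore given on the deposited scale and, where it matters, after each library was centred on its median ratio to the mean library. ADAMTS18, the gene the study ties to SE12313, fell in both deletions: it was at 0.682 and 0.859 FPKM in the controls, at 0.0870 to 0.149 in ΔE2 and at 0.128 to 0.232 in ΔSE12313-b. Endothelial markers were expressed in every library, with a summed level of 312 FPKM in both controls, 334 to 522 in ΔE2 and 334 to 453 in ΔSE12313-b. Of these 10 genes, 8 or 9 reached 0.5 FPKM in each library, and KDR lay under the minimum. The sum hides opposite changes against the controls. PECAM1 (1.11 in ΔE2 and 2.10 in ΔSE12313-b on the log2 scale) and ERG (1.25 and 1.09) were higher in both deletions, and VWF (-1.72 and -1.80) was lower in both. Leukocyte markers summed to at most 0.166 FPKM and fibroblast or mural markers to at most 6.41, with ACTA2 as the only one of 5 tested. Of the 6 epithelial markers KRT8 and KRT18 carried nearly all of the signal, with sums of 234 and 240 FPKM in the controls and 542 to 754 in the clones, while CDH1 was at 0 throughout. The markers that moved most with the groups were those of proliferation: their sum over 6 genes was 14.8 and 15.8 FPKM in the controls and 271 to 366 in the 6 clones. In its cell assays the study reported the opposite for growth, with reduced proliferation and fewer cells in S phase in both deletions. Why RNA and assays differ was not tested. The part of these marker shifts in the changes below was not tested. In bulk RNA, fewer cells of a type and less RNA per cell cannot be told apart.

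In the clones of both deletions the messages of much of the folding and translocation machinery rose, while those of ERN1, XBP1 and part of ERAD fell. Here a gene rose or fell when limma's test on log2(FPKM + 0.1), adjusted by Benjamini-Hochberg over all 13790 genes, gave an adjusted p under 0.05, and a DEG had in addition a change of at least 2-fold. In ΔE2, 17 of the 32 genes rose (53.1%, against 34.7% of all genes tested) and 7 fell (21.9% against 19.4%). In ΔSE12313-b, 19 rose (59.4% against 43%) and 8 fell (25.0% against 16.4%). Few of these changes were large: 2 genes were upregulated DEGs in ΔE2 (6.25% against 11.2%) and 1 was a downregulated DEG (3.12% against 8.36%), and ΔSE12313-b had 5 upregulated DEGs (15.6% against 14.7%) and 2 downregulated ones (6.25% against 7.83%). The share of DEGs was thus near or under that of all genes. The 32 genes had a median of 0.36 (ΔE2) and 0.40 (ΔSE12313-b). All 3 ΔE2 clones lay above both controls for 21 genes (44.8% of all genes did) and below them for 8 (28.7%), and those of ΔSE12313-b above for 22 (51.6%) and below for 9 (23.8%). After centring, 12 rose and 8 fell in ΔE2 (background 26.6% and 26.1%), 11 rose and 9 fell in ΔSE12313-b (27.7% and 27.3%), and the medians were 0.20 and 0.11. Centred DEGs were 1 up and 1 down in ΔE2 (8.48% and 10.6%) and 3 up and 4 down in ΔSE12313-b (8.71% and 11.4%).

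The genes that changed in both deletions, which share the 2 control libraries, are the base of what follows. A total of 16 rose in both (30.8% of all genes tested did): HSPA5, HSP90B1, DNAJB11, DNAJC3, SDF2L1, MANF, CRELD2, P4HB, PDIA4, CALR, CANX, DERL2, SEC61A1, SEC61B, SSR1 and EIF2AK3. The 6 that fell in both (12.1% of all genes tested) were ERN1, XBP1, CREB3L2, DNAJB9, HERPUD1 and SYVN1. CALR and SDF2L1 were upregulated DEGs in both (9.14% of all genes) and ERN1 a downregulated one (5.16%). For the counts that follow, the share of all genes that held likewise was not computed. Of the 16, 9 also rose in both after centring, and 9 after quantile normalization, and all 6 that fell did so under both of these scalings. Under every one of 19 alternative analyses 8 of the 16 held in both deletions, namely CALR, CANX, SDF2L1, MANF, CRELD2, DNAJC3, SEC61A1 and SSR1. Of the 6, 5 held, the exception being DNAJB9, with an adjusted p of 0.0510 in ΔE2 without control replicate 2. The plot of log2 fold changes by role shows most folding and translocation genes to the right of the line of no change, with DNAJB9 and, in ΔSE12313-b, HYOU1 and SEC24D to the left. Of the sensors, ERN1 lies to the left and EIF2AK3 to the right.

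**Figure D1:**
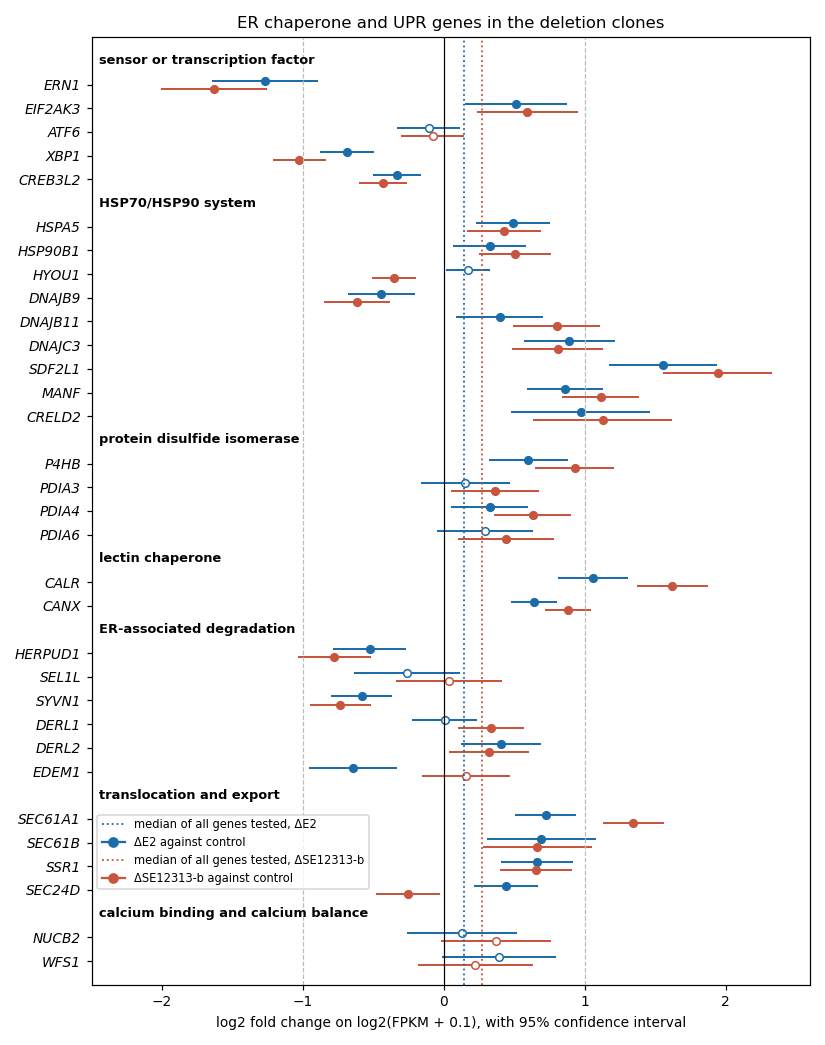
Log2 fold change of each of the 32 genes tested, on log2(FPKM + 0.1), with its 95% confidence interval, in ΔE2 (blue) and ΔSE12313-b (red) against the same 2 control libraries, grouped by role. Filled points have an adjusted p under 0.05, dotted lines mark the medians of all genes tested (0.14 and 0.27) and dashed lines a 2-fold change; SDF2L1 and CALR lie furthest to the right and ERN1 furthest to the left.

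ERSE and ERSE-II are the DNA elements through which ATF6 and XBP1, with the CCAAT-binding factor NF-Y, act on chaperone promoters. Windows from 250 bases before to 50 bases after the transcription start, taken from RefSeq on GRCh38.p14, were found for 29 of the 33 genes. The ERSE, a CCAAT box and a CCACG at a fixed distance, was searched on both strands and stood in the windows of 7 of the 29 (24.1%), against 25 of all 27305 genes in the table (0.0916%). ERSE-II, ATTGG and CCACG with 1 base between them, stood in 3 (10.3%), against 0.0696% of all genes. UPRE, TGACGTGG, stood only in HYOU1, where it overlaps an ERSE-II (0.927% of all genes hold it), and the amino acid response element TGATGCAAT, through which ATF4 acts, in 0 of the 29 (0.293% of all genes). The genes were chosen from the pathway in which these elements act, so their higher shares are no independent finding. The matches are of letters only. They are shown because genes with the same element moved in opposite directions. Capitals mark the fixed letters of the motif, each element is written 5′ to 3′ in the motif's own direction, and the coordinates are of GRCh38.p14. CALR (chr19:12938384-12938402, minus strand), CRELD2 (chr22:49918554-49918572, minus), HSPA5 (chr9:125241391-125241409, minus) and XBP1 (chr22:28800603-28800621, minus) have an ERSE. SDF2L1 (chr22:21642114-21642124, minus), HERPUD1 (chr16:56932025-56932035, plus) and HYOU1 (chr11:119057274-119057284, plus) have an ERSE-II.
CALR: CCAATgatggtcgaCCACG
CRELD2: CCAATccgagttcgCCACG
HSPA5: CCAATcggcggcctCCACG
XBP1: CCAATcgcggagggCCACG
SDF2L1: ATTGGtCCACG
HERPUD1: ATTGGgCCACG
HYOU1: ATTGGaCCACG
CALR, CRELD2 and HSPA5 rose in both deletions and XBP1, with the same element from -52 to -34 relative to its start, fell in both. The other ERSE genes were CANX and HSP90B1, which rose in both, and PDIA6, which rose in ΔSE12313-b only. SDF2L1 rose, HERPUD1 fell, and HYOU1, which holds ERSE-II at 2 places, fell in ΔSE12313-b.

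The sensors did not move together. ERN1 (chr17:62116502-62207502 on GRCh37, minus strand), the IRE1α kinase and endoribonuclease, was at 5.0 and 4.66 FPKM in the controls, at 1.63, 2.03 and 2.21 in ΔE2 and at 1.63, 1.36 and 1.496 in ΔSE12313-b. All 6 clones lay far under both controls, and the lowest ΔE2 clone (1.630) lay just above the highest ΔSE12313-b clone (1.627). ERN1 fell by 1.27 ± 0.16 (SE) on the log2 scale in ΔE2 (adjusted p = 0.000374) and by 1.63 ± 0.16 in ΔSE12313-b (adjusted p = 8.2e-05). XBP1 (chr22:29190548-29196560, minus strand), the transcription factor whose mRNA IRE1α splices, was at 35.6 and 37.9 FPKM in the controls, 21.0, 23.5 and 23.8 in ΔE2 and 17.8, 17.7 and 18.4 in ΔSE12313-b. The 3 groups did not overlap, with the controls highest and ΔSE12313-b lowest. XBP1 fell by 0.69 ± 0.08 in ΔE2 (adjusted p = 0.000231) and by 1.03 ± 0.08 in ΔSE12313-b (adjusted p = 2.39e-05). Without control replicate 2 the fall in ΔSE12313-b was 0.98, just under 2-fold (log2 fold change -0.98, adjusted p = 0.000659). The table lists the spliced-length and unspliced-length XBP1 transcripts with nearly equal FPKM, since they share almost all of their bases, so splicing was not measured.

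EIF2AK3 (chr2:88856258-88924447, minus strand), the PERK kinase, had the lowest level of the 32 genes in the controls, 1.69 and 2.01 FPKM, and was at 2.49, 3.14 and 2.43 in ΔE2 and 2.91, 2.65 and 2.93 in ΔSE12313-b. All clones lay above both controls, and the gene rose by 0.51 ± 0.15 (adjusted p = 0.0230) and 0.59 ± 0.15 (adjusted p = 0.0109). Both calls were lost without control replicate 1 (adjusted p = 0.156 and 0.0884) and after centring (0.0827 and 0.121). ATF6, the sensor cleaved in the Golgi, was at 15.4 and 15.8 FPKM in the controls, 13.1, 14.3 and 16.1 in ΔE2 and 14.4, 14.98 and 14.9 in ΔSE12313-b. It did not pass the test in ΔE2 (-0.11, adjusted p = 0.366) or ΔSE12313-b (-0.08, adjusted p = 0.486), and after centring the log2 values were -0.26 (adjusted p = 0.0295) and -0.37 (adjusted p = 0.00702). CREB3L2, an ATF6-like factor that drives export of large secretory cargo, fell from 21.3 ± 0.211 FPKM (SD, n = 2) to 16.8 ± 0.412 (n = 3) in ΔE2 and 15.8 ± 0.709 (n = 3) in ΔSE12313-b, by 0.33 and 0.43 on the log2 scale (adjusted p = 0.00474 and 0.00113).

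**Figure D2:**
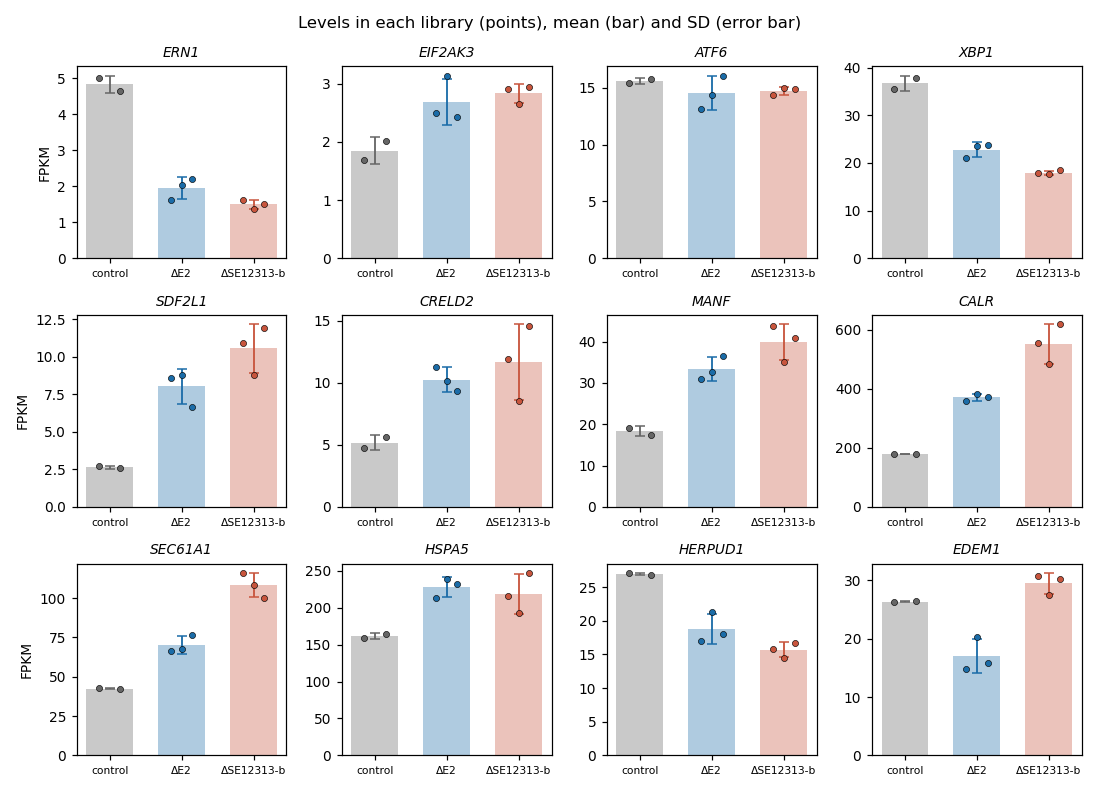
FPKM of 12 of the genes in each library (points), with the mean of each group (bars) and its SD (error bars) for 2 control, 3 ΔE2 and 3 ΔSE12313-b libraries; every axis starts at 0. ERN1, XBP1 and HERPUD1 are lower in all 6 clones than in both controls, SDF2L1, CRELD2, MANF, CALR and SEC61A1 are higher, ATF6 overlaps in ΔE2, and EDEM1 is lower in ΔE2 only.

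Most chaperones and cofactors of the HSP70 and HSP90 system rose. SDF2L1 (chr22:21996542-21998588, plus strand), a partner of BiP co-chaperones, rose most: it was at 2.72 and 2.58 FPKM in the controls, 8.62, 8.80 and 6.68 in ΔE2 and 10.9, 8.78 and 11.9 in ΔSE12313-b. No clone came near the controls, and it rose 2.94-fold (log2 fold change 1.56 ± 0.16, adjusted p = 0.000154) and 3.85-fold (1.94 ± 0.16, adjusted p = 3.91e-05). MANF (chr3:51422668-51426828, plus strand), a protein of the ER lumen that is secreted under stress, was at 19.2 and 17.5 FPKM in the controls, 31.0, 32.6 and 36.6 in ΔE2 and 43.7, 35.1 and 40.8 in ΔSE12313-b. All clones were higher than both controls, by 1.81-fold in ΔE2 (adjusted p = 0.000484) and 2.16-fold in ΔSE12313-b (adjusted p = 0.000103). In ΔSE12313-b the log2 fold change of MANF was 0.82 after centring and 0.68 after quantile normalization, both under 2-fold. CRELD2 (chr22:50312278-50321188, plus strand), another secreted protein of ER stress, was at 4.76 and 5.59 FPKM in the controls, 11.3, 10.1 and 9.29 in ΔE2 and 11.9, 8.49 and 14.6 in ΔSE12313-b. The ΔSE12313-b clones differed widely among themselves (SD 3.06) but all exceeded the controls, and CRELD2 rose 1.96-fold (adjusted p = 0.00553) and 2.18-fold (adjusted p = 0.00227). In ΔSE12313-b its log2 fold change was 0.84 after centring and 0.83 after quantile normalization, both under 2-fold. Its 2-fold call in ΔSE12313-b was lost without ΔSE12313-b replicate 3 (log2 fold change 0.95), and a 2-fold call in ΔE2 was gained without control replicate 2 (1.08) or without ΔE2 replicate 3 (1.04).

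HSPA5, or BiP, the HSP70 of the ER, rose from 162 ± 4.2 FPKM (SD, n = 2) to 228 ± 13.7 in ΔE2 and 218 ± 27.6 in ΔSE12313-b (n = 3 each), 1.41-fold and 1.34-fold (adjusted p = 0.00663 and 0.0110). Both calls were lost without control replicate 1 (adjusted p = 0.0508 and 0.0722). HSP90B1, or GRP94, the HSP90 of the ER, had the highest level of all 33 genes in the controls, 199 ± 5.04 FPKM, and rose to 249 ± 14.8 and 283 ± 34.3, by 0.32 (adjusted p = 0.0353) and 0.50 (adjusted p = 0.00462) on the log2 scale. The call in ΔE2 was lost when any of 5 libraries was left out, both controls, ΔE2 replicates 2 and 3 and ΔSE12313-b replicate 1 (adjusted p from 0.0545 to 0.163). After centring, HSPA5 rose in ΔE2 only and HSP90B1 in neither deletion.

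The J-domain proteins that regulate BiP split. DNAJC3, also called p58IPK and an inhibitor of PERK, rose from 5.15 ± 0.287 FPKM to 9.69 ± 1.58 and 9.09 ± 0.504, 1.85-fold and 1.75-fold (adjusted p = 0.00102 and 0.00136). DNAJB11, which binds unfolded substrates for BiP, was at 16.7 and 17.7 FPKM in the controls, 23.1, 22.5 and 22.4 in ΔE2 and 28.9, 25.9 and 36.2 in ΔSE12313-b. The groups were fully ordered, and it rose by 0.40 ± 0.13 (adjusted p = 0.0327) and 0.80 ± 0.13 (adjusted p = 0.00111). In ΔE2 this call was lost when either control or any ΔE2 library was left out (5 libraries, adjusted p from 0.0568 to 0.157). DNAJB9, or ERdj4, which holds IRE1α inactive by bringing BiP to it, fell from 7.32 ± 0.195 FPKM to 5.36 ± 0.233 and 4.75 ± 0.387, by 0.44 and 0.62 on the log2 scale (adjusted p = 0.00639 and 0.00107). HYOU1, or GRP170, the nucleotide exchange factor of BiP, was at 30.1 and 29.95 FPKM in the controls, 32.6, 34.5 and 34.3 in ΔE2 and 24.2, 23.0 and 23.3 in ΔSE12313-b. It fell in ΔSE12313-b by 0.35 ± 0.06 (adjusted p = 0.00194), and in ΔE2, where all clones lay above the controls, its log2 fold change of 0.17 did not pass (adjusted p = 0.0516).

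Both lectin chaperones, which hold glycoproteins while they fold, rose in both deletions. CALR (chr19:13049414-13055304, plus strand), calreticulin, was at 178 FPKM in both controls, 359, 383 and 370.5 in ΔE2 and 553, 482 and 617 in ΔSE12313-b. The 3 groups were far apart, and in both deletions calreticulin had the highest mean level of the 33 genes. It rose 2.08-fold (1.06 ± 0.10, adjusted p = 0.000113) and 3.08-fold (1.62 ± 0.10, adjusted p = 1.03e-05), and after centring its log2 fold change in ΔE2 was 0.90, under 2-fold. CALR shares 9.71% of its exon bases with a long non-coding RNA of the opposite strand. CANX, calnexin, the membrane-bound partner, was at 66.5 and 69.5 FPKM in the controls, 104, 106 and 109 in ΔE2 and 129, 119 and 129 in ΔSE12313-b. These groups did not overlap either, and CANX rose by 0.64 ± 0.07 (adjusted p = 0.000149) and 0.88 ± 0.07 (adjusted p = 2.3e-05).

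Of the 4 protein disulfide isomerases, which make and reshuffle disulfide bonds, 2 rose in ΔE2 (50%, against 34.7% of all genes) and 4 in ΔSE12313-b (100% against 43%). Their median was 0.31 (ΔE2) and 0.54 (ΔSE12313-b), beside 0.14 and 0.27 for all genes. After centring, only P4HB rose in ΔE2 and only P4HB and PDIA4 in ΔSE12313-b. P4HB, the archetypal isomerase and a subunit of prolyl 4-hydroxylase, rose from 83.8 ± 5.39 FPKM to 127 ± 5.3 and 161 ± 22.5 (0.60 and 0.93, adjusted p = 0.0036 and 0.000328). PDIA4, or ERp72, rose from 94.7 ± 0.234 FPKM to 119 ± 10.9 and 147 ± 17.2 (0.33 and 0.63, adjusted p = 0.0421 and 0.00199). PDIA4 lost its call in ΔE2 when either control, ΔE2 replicate 2 or 3 or ΔSE12313-b replicate 1 was left out (adjusted p from 0.0620 to 0.153). PDIA3, or ERp57, the isomerase of the lectin cycle, rose in ΔSE12313-b only (69.3 ± 0.72 to 89.9 ± 15.7 FPKM, 0.36, adjusted p = 0.0455), a call that was lost when any library but ΔSE12313-b replicate 2 was left out (7 libraries, adjusted p from 0.0558 to 0.159). In ΔE2 it was at 77.1 ± 3.01 FPKM (adjusted p = 0.360). PDIA6, which attenuates IRE1α and PERK signalling, rose in ΔSE12313-b only (81.4 ± 3.76 to 112 ± 18.3 FPKM, 0.44, adjusted p = 0.0295) and was at 100.2 ± 11.7 FPKM in ΔE2 (adjusted p = 0.120). Without either control or ΔSE12313-b replicate 1 or 3 its call was lost (adjusted p from 0.0551 to 0.142), and 41.1% of its exon bases lie in exons of ATP6V1C2 on the opposite strand. A PDIA3 pseudogene, PDIA3P1, was listed at 19.2 FPKM in the controls, 22.5 in ΔE2 and 25.8 in ΔSE12313-b, so reads of PDIA3 may be split.

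ERAD genes went in both directions. HERPUD1, which assembles the HRD1 ligase complex, fell from 26.9 ± 0.199 FPKM to 18.8 ± 2.21 and 15.7 ± 1.15 (by 0.53 and 0.78 on the log2 scale, adjusted p = 0.00453 and 0.000532). SYVN1, the HRD1 ubiquitin ligase, fell from 10.9 ± 0.316 FPKM to 7.25 ± 0.135 and 6.52 ± 0.515 (by 0.58 and 0.74, adjusted p = 0.00108 and 0.000266). SEL1L, the adaptor of HRD1, passed in neither deletion, at -0.26 (adjusted p = 0.200) and 0.04 (adjusted p = 0.859). EDEM1, a mannosidase-like protein that hands misfolded glycoproteins to ERAD, was at 26.3 and 26.4 FPKM in the controls, 14.9, 20.4 and 15.8 in ΔE2 and 30.8, 27.5 and 30.3 in ΔSE12313-b. It fell in ΔE2 by 0.64 ± 0.13 (adjusted p = 0.00429), and in ΔSE12313-b its log2 fold change of 0.16 did not pass (adjusted p = 0.324).

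The derlins, channel proteins of ERAD, differed from HERPUD1 and SYVN1. DERL2 rose in both deletions, from 4.55 ± 0.0672 FPKM to 6.08 ± 0.428 and 5.73 ± 0.664 (0.41 and 0.32, adjusted p = 0.0211 and 0.0482). In ΔE2 this call was lost without either control or ΔE2 replicate 3 (adjusted p from 0.0657 to 0.101) and in ΔSE12313-b without any library but ΔSE12313-b replicate 3 (7 libraries, adjusted p from 0.0556 to 0.170). DERL1 was at 17.2 and 17.3 FPKM in the controls, 16.0, 16.6 and 19.5 in ΔE2 and 22.9, 21.4 and 21.1 in ΔSE12313-b. It rose in ΔSE12313-b by 0.33 ± 0.10 (adjusted p = 0.0180), which was lost without either control or ΔSE12313-b replicate 1 (adjusted p from 0.0560 to 0.0906), and it did not pass in ΔE2 (adjusted p = 0.971). After centring, the log2 fold changes of DERL1 were -0.15 and 0.05 (adjusted p = 0.175 and 0.672). Those of DERL2 were then 0.25 and 0.03 and passed in neither deletion (adjusted p = 0.102 and 0.830). Over the 6 ERAD genes tested the median was -0.39 (ΔE2) and 0.10 (ΔSE12313-b), beside 0.14 and 0.27 for all genes.

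The 3 translocation genes rose in both deletions, and the export gene SEC24D rose in ΔE2 and not in ΔSE12313-b. SEC61A1 (chr3:127771212-127790526, plus strand), the pore of the ER translocon, was at 42.7 and 42.3 FPKM in the controls, 66.6, 67.6 and 76.6 in ΔE2 and 116, 109 and 100.3 in ΔSE12313-b. The groups were fully apart, and SEC61A1 rose 1.65-fold (0.72 ± 0.09, adjusted p = 0.000361) and 2.54-fold (1.35 ± 0.09, adjusted p = 1.24e-05). Under quantile normalization its log2 fold change in ΔSE12313-b was 0.86, under 2-fold. SEC61B, the small β subunit of the pore, rose from 24.0 ± 1.5 FPKM to 38.9 ± 3.25 and 38.6 ± 8.48 (0.69 and 0.66, adjusted p = 0.00842 and 0.00892). Its calls were lost without control replicate 2 (adjusted p = 0.0600 and 0.0618). SSR1, a subunit of the translocon-associated protein complex, rose from 8.60 FPKM in both controls to 13.7 ± 0.75 and 13.6 ± 1.57 (0.66 and 0.65, adjusted p = 0.00133 and 0.00116). SEC24D, a cargo receptor of COPII vesicles, was at 15.1 and 16.7 FPKM in the controls, 19.7, 23.6 and 21.7 in ΔE2 and 13.3, 13.8 and 13.0 in ΔSE12313-b. It rose in ΔE2 by 0.44 ± 0.09 (adjusted p = 0.00542) and fell in ΔSE12313-b by 0.25 ± 0.09 (adjusted p = 0.0492). The rise was lost without control replicate 1 (adjusted p = 0.0577), and the fall without either control, ΔE2 replicate 3 or any ΔSE12313-b library (6 libraries, adjusted p from 0.0672 to 0.285). NUCB2, a calcium-binding protein, had log2 fold changes of 0.13 and 0.37 (adjusted p = 0.543 and 0.0872), and WFS1, wolframin of the ER membrane, 0.39 and 0.22 (adjusted p = 0.0900 and 0.293).

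By level, the folding machinery dominated in every library. In the controls the order ran from HSP90B1 (199 FPKM), CALR (178) and HSPA5 (162) through PDIA4 (94.7), P4HB (83.8), PDIA6 (81.4), PDIA3 (69.3) and CANX (68.0) to SEC61A1 (42.5) and XBP1 (36.7), and ended with DERL2 (4.55), WFS1 (4.43), SDF2L1 (2.65) and EIF2AK3 (1.85). Of the 32 pairs of neighbours in this order 9 overlapped between the control libraries, among them P4HB with PDIA6, PDIA3 with CANX, DERL1 with DNAJB11, CRELD2 with DNAJC3 and DERL2 with WFS1. All 33 genes together summed to 1315 and 1347 FPKM in the controls, 1730 to 1905 in ΔE2 and 1944 to 2411 in ΔSE12313-b, which is 0.377% and 0.386%, 0.453% to 0.504% and 0.517% to 0.575% of the FPKM over all genes. The 3 groups did not overlap in either measure. HSPA5, HSP90B1, CALR, CANX and the 4 isomerases made up most of the sum, with 921 and 951 FPKM in the controls, 1304 to 1446 in ΔE2 and 1476 to 1890 in ΔSE12313-b.

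The clones of 1 deletion differed more than the controls. The median coefficient of variation of the 32 genes was 2.63% between the controls (4.82% for all genes tested), 8.53% among the ΔE2 clones (10.5%) and 11.2% among the ΔSE12313-b clones (10.9%). In each deletion 1 clone was often the lowest: ΔE2 replicate 1 was the lowest of its group for 25 of the 32 genes and ΔSE12313-b replicate 2 for 22 of them. ΔE2 replicate 2 was the highest for 18 and ΔSE12313-b replicate 3 for 20. The order of the clones over all genes was not computed, so it may not be particular to these genes. ΔE2 replicate 1 and ΔSE12313-b replicate 2 also had the lowest share of reads on the 1 transcript per symbol in their groups (70.0% and 75.2%). Within ΔSE12313-b the spread was widest for CRELD2 (26.2%) and within ΔE2 for WFS1 (19.6%).

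The 2 deletions were then compared directly, a contrast in which the shared controls drop out of the difference, while their spread still enters its standard error. No gene was a DEG between them by limma (0 of 32 higher and 0 lower, against 1.6% and 2.63% of all genes tested), and voom on recovered reads likewise gave 0 DEGs. By limma 15 had an unadjusted p under 0.05, but the share of all genes at this limit was not computed. Smaller differences passed: 3 genes were higher in ΔE2 (9.38% against 6.69%) and 6 were lower (18.8% against 19.3%), while after centring 8 were higher and 3 lower (10.6% and 11.1% of all genes). Centred DEGs were 0 as well (2.08% and 1.77%), by limma, and 6 genes had all ΔE2 clones above those of ΔSE12313-b (11% of all genes) and 7 below (29.8%). The median log2 difference was -0.12, as for all genes tested (-0.11).

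EDEM1, with the largest difference, was lower in ΔE2 than in ΔSE12313-b by 0.80 (log2 difference -0.80 ± 0.12, adjusted p = 0.00285). SEC61A1 (-0.62 ± 0.08, adjusted p = 0.00185) and CALR (-0.56 ± 0.09, adjusted p = 0.00456) were lower in ΔE2 too, and these 3 also passed after centring (-0.67, -0.49 and -0.43, adjusted p = 0.00591, 0.00372 and 0.0129). DNAJB11 (-0.40 ± 0.12, adjusted p = 0.0370), DERL1 (-0.33 ± 0.09, adjusted p = 0.0273) and CANX (-0.24 ± 0.06, adjusted p = 0.0215) passed on the deposited scale and not after centring (adjusted p = 0.135, 0.111 and 0.180). Higher in ΔE2 were SEC24D (0.69 ± 0.08, adjusted p = 0.00156), HYOU1 (0.52 ± 0.06, adjusted p = 0.00109) and XBP1 (0.34 ± 0.07, adjusted p = 0.0110), with no overlap between the clones of the deletions, and all 3 passed after centring as well. ERN1 did not pass (0.36 ± 0.14, 95% interval 0.03 to 0.69, adjusted p = 0.103), and after centring it passed (0.49, adjusted p = 0.0364). When 1 library was left out, CANX lost its call without ΔE2 replicate 1 (adjusted p = 0.0643) or ΔSE12313-b replicate 1 (0.0707). DNAJB11 lost it without any library but ΔSE12313-b replicates 2 and 3 (6 libraries, adjusted p from 0.0599 to 0.0968), and DERL1 without any library but ΔE2 replicate 3 and ΔSE12313-b replicate 3 (6 libraries, adjusted p from 0.0514 to 0.0888).

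**Figure D3:**
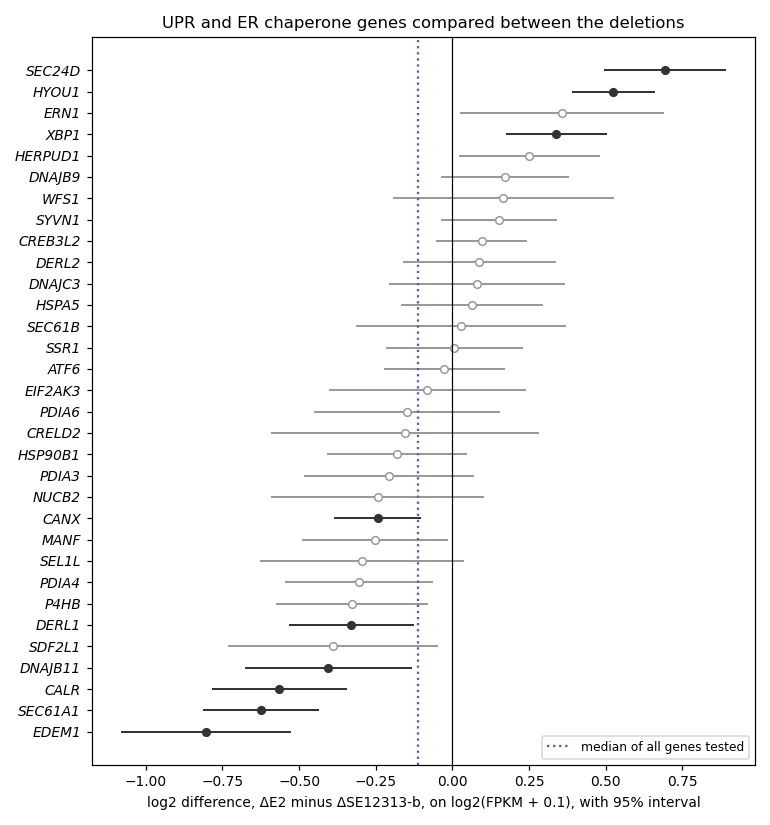
Log2 difference of ΔE2 minus ΔSE12313-b (3 clones each) for the 32 genes, on log2(FPKM + 0.1), with its 95% confidence interval. The interval comes from the model of all 8 libraries, so the spread of the controls enters it. Filled points have an adjusted p under 0.05 and the dotted line is the median of all genes tested (-0.11). SEC24D, HYOU1 and XBP1 are higher in ΔE2, and EDEM1, SEC61A1, CALR, DNAJB11, DERL1 and CANX are higher in ΔSE12313-b.

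Other genes of the same pathway, from lists of their own, were set beside these. Most genes of PERK signalling and the integrated stress response fell in both deletions: of 10 genes, 7 were downregulated DEGs in ΔE2 (8.36% of all genes were) and 8 in ΔSE12313-b (7.83%), 0 rose, and the median log2 fold change was -1.64 and -1.59 (0.14 and 0.27 for all genes tested). CHAC1, a glutathione-degrading enzyme, was at 6.06 and 5.94 FPKM in the controls and at 0.455 to 0.965 in the 6 clones (log2 fold changes -2.94 and -3.08). TRIB3, a pseudokinase, was at 187 and 180 FPKM in the controls and at 24.5 to 42.5 in the clones (-2.81 and -2.25). ASNS, asparagine synthetase (-1.95 and -2.66), and CEBPB, a transcription factor (-2.06 and -1.49), fell likewise. The others of the 7 were ATF4, the transcription factor itself, DDIT3, or CHOP, and SESN2, and ATF3 was the DEG of ΔSE12313-b alone. ATF3 did not pass in ΔE2 (adjusted p = 0.985), and PPP1R15A and PPP1R15B, subunits of the phosphatase that reverses the PERK mark on eIF2α, passed in neither deletion. After centring, 8 and 10 of the 10 fell (26.1% and 27.3% of all genes did) and 0 rose.

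Of 21 other genes of the translocon and of the oligosaccharyltransferase, which puts glycans on new proteins, 13 rose in ΔE2 (61.9%, against 34.7% of all genes) and 0 fell (against 19.4%), and in ΔSE12313-b 14 rose (66.7% against 43%) and 1 fell (4.76% against 16.4%). Their medians were 0.40 and 0.47, beside 0.14 and 0.27 for all genes. SSR2, a subunit of the same complex as SSR1, was the only DEG of both deletions in this list, rising from 39.1 and 33.5 FPKM to between 65.1 and 83.3 in the clones. Of 16 other COPII coat and ER to Golgi genes, 10 rose in ΔE2 (62.5% against 34.7%) and 12 in ΔSE12313-b (75% against 43%), where 2 fell (12.5% against 16.4%), with medians of 0.32 and 0.60. After centring, 10 and 8 of the translocon genes (47.6% and 38.1%) and 7 and 9 of the COPII genes (43.8% and 56.2%) rose, against 26.6% and 27.7% of all genes. Of 21 other folding enzymes 8 rose in ΔE2 (38.1% against 34.7%) and 11 in ΔSE12313-b (52.4% against 43%), near the share of all genes, while 2 and 1 fell (9.52% against 19.4% and 4.76% against 16.4%). Their median of 0.11 in ΔE2 was under that of all genes (0.14), their median in ΔSE12313-b was 0.43, and 0 were DEGs in both. Of 16 other ERAD genes, 4 rose (25%, against 34.7% and 43% of all genes) and 2 fell (12.5%, against 19.4% and 16.4%) in each deletion, with medians of -0.02 and 0.09 that were both under those of all genes. Among them VCP, the ATPase that pulls substrates out of the membrane, was a DEG in both, at 36.4 and 36.5 FPKM in the controls and 78.2 to 87.1 in the clones. Of 7 other UPR transducers tested, 3 rose (42.9%, against 34.7% and 43%) and 1 fell (14.3%, against 19.4% and 16.4%) in each deletion and 0 were DEGs (median -0.04 and 0.27).

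**Figure D4:**
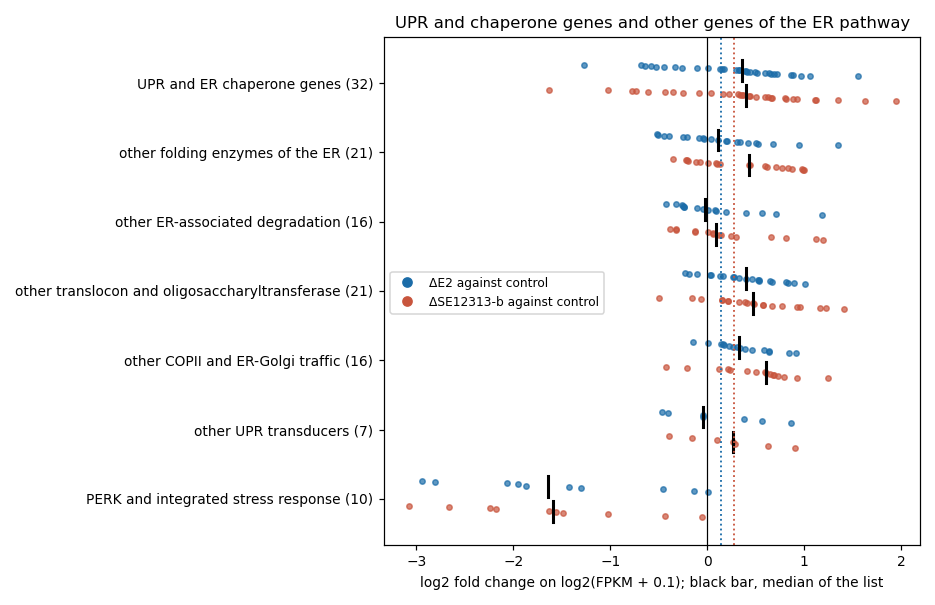
Log2 fold change of each gene tested (points) in ΔE2 (blue) and ΔSE12313-b (red) against the same controls, for the 32 UPR and ER chaperone genes and for 6 other lists of the pathway, with the number of genes in brackets; black bars are medians and dotted lines the medians of all genes tested. The medians of the integrated stress response, -1.64 and -1.59, lie to the left of the medians of the other lists, which run from -0.04 to 0.60, while some of its points lie near 0.

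The scaling of the libraries changed the balance of rises and falls. Quantile normalization, which forces the same distribution of values on all libraries, brought the median of the 32 genes to -0.0065 in ΔE2 and -0.062 in ΔSE12313-b, against -0.033 and -0.0091 for all genes tested. In ΔE2, 9 genes then rose (28.1%, against 26% of all genes) and 10 fell (31.2% against 27.3%), and in ΔSE12313-b 11 rose (34.4% against 27.8%) and 9 fell (28.1% against 27.3%). These shares were near those of all genes. HSP90B1 and PDIA4 in ΔE2, and HSPA5, HSP90B1, PDIA3, PDIA6 and DERL1 in ΔSE12313-b, which had risen on the deposited scale, then had log2 fold changes below 0, of -0.074, -0.11, -0.12, -0.0070, -0.16, -0.087 and -0.080. Their rise is therefore a statement about the deposited scale only. Other rises kept their sign under quantile normalization but no longer passed. Among them were HSPA5 (0.061) and P4HB (0.19) in ΔE2 and PDIA4 (0.065) in ΔSE12313-b (limma, adjusted p = 0.559, 0.0954 and 0.584). DNAJB11, DERL2 and SEC61B no longer rose in both deletions. CALR (0.68 and 1.16), SDF2L1 and the falls of ERN1 and XBP1 passed under this scaling also.

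**Figure D5:**
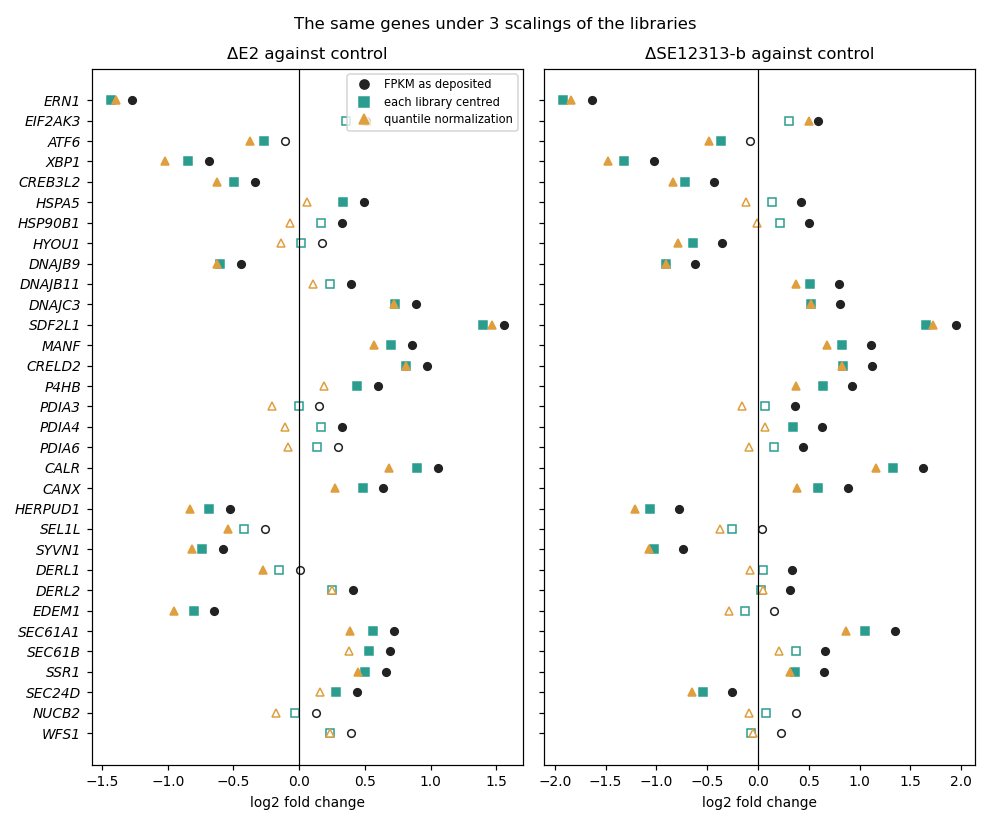
Log2 fold change of the 32 genes in ΔE2 (left) and ΔSE12313-b (right) under 3 scalings: FPKM as deposited (black circles), each library centred (green squares) and quantile normalization (orange triangles); filled symbols have an adjusted p under 0.05. The symbols of HSPA5, HSP90B1 and the disulfide isomerases move towards or past 0, while those of ERN1, XBP1, SDF2L1 and CALR stay on their side.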

How the data were processed

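Total RNA without rRNA from 8 EA.hy926 libraries (2 control, 3 ΔE2, 3 ΔSE12313-b) was sequenced by the authors with a directional kit, in single-end runs of 75 cycles. Reads were trimmed by the authors with Trim Galore 0.4.4 and mapped to GRCh37 with STAR 2.5.4b. The authors deposited 1 table of FPKM for 65572 RefSeq transcripts. The study's methods name featureCounts with a Gencode annotation for gene counts, whereas this table lists RefSeq transcripts, so the tool that made it, its RefSeq release and its strand handling are not given in the sources used here, and reads of overlapping genes on opposite strands may be mixed.

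The members and lists were chosen with earlier results of these data known. Genes were matched by symbol, with 1 transcript per symbol (highest mean FPKM). Genes with at least 0.5 FPKM in at least 2 libraries (13790) were tested with limma 3.58.1 (R 4.3.3) on log2(FPKM + 0.1) (3 groups in 1 model, empirical Bayes with trend, two-sided), and p-values were adjusted by Benjamini-Hochberg over all of them. This scale understates changes of low genes. A DEG changed at least 2-fold with an adjusted p under 0.05. The fit was tested on simulated data. FPKM times transcript length gave whole reads for 100% of the values checked, within 0.1 read, and library totals of 12067420 to 12696156 (control), 13616556 to 19101018 (ΔE2) and 14813988 to 16085464 (ΔSE12313-b). These reads served for depth and for voom only. The values per library are given for genes that were DEGs, for the sensors and XBP1, and for genes that differed between the deletions. From each other list, up to 4 genes that were DEGs in both deletions were named, by mean absolute log2 fold change, and the remaining DEGs of the stress list, with ATF3, were added after their values were seen. Promoter windows came from RefSeq on GRCh38.p14.

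The alternatives were other pseudocounts (0.01 and 1), filters, scalings and variance settings, a replicate block, only the groups compared, the longest transcript, voom, a 1.5-fold limit, an adjusted p under 0.01 and each library left out. The labels' replicate numbers were not used as pairs, because same-numbered clones of the 2 deletions did not deviate together in every pair (correlations 0.107, -0.0804 and -0.0730).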

Additional observations from a re-analysis of the deposited data

Results flagged for a closer look

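The effects of the 2 deletions differed for 9 genes by the direct test between them (limma, Benjamini-Hochberg over all genes tested). They were 3 of 32 higher in ΔE2 (9.38%, against 6.69% of all genes) and 6 lower (18.8% against 19.3%), shares near those of all genes. On the log2 scale, ΔE2 was above ΔSE12313-b for SEC24D by 0.69, for HYOU1 by 0.52 and for XBP1 by 0.34. For EDEM1 (-0.80), SEC61A1 (-0.62), CALR (-0.56), DNAJB11 (-0.40), DERL1 (-0.33) and CANX (-0.24) it was below. DNAJB11, DERL1 and CANX did not pass after centring. All 3 clones of ΔE2 lay on one side of all 3 clones of ΔSE12313-b for each of these 9. SEC24D moved in opposite directions against the shared controls, rising in ΔE2 (0.44) and falling in ΔSE12313-b (-0.25). EDEM1 and HYOU1 each passed in 1 deletion only, EDEM1 by its fall in ΔE2 (-0.64) and HYOU1 by its fall in ΔSE12313-b (-0.35), and for them the difference itself was what the direct test found.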

How the results depend on the processing

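Under quantile normalization ΔE2 had 1 upregulated and 2 downregulated DEGs, 9 genes that rose, 10 that fell and a median of -0.0065, ΔSE12313-b had 2 and 4 DEGs, 11 that rose, 9 that fell and a median of -0.062, and between the deletions 6 genes were higher and 3 lower in ΔE2, with a median of 0.0082. After centring, ΔE2 had 1 upregulated DEG and a median of 0.20, ΔSE12313-b 3 upregulated and 4 downregulated DEGs, 11 genes that rose and a median of 0.11, and between the deletions 8 were higher and 3 lower, with a median of 0.015. Both scalings remove the upward shift of all genes tested. A pseudocount of 1 left 0 downregulated DEGs in ΔE2 and 1 in ΔSE12313-b. With a 1.5-fold limit there were 10 upregulated and 3 downregulated genes in ΔE2, 13 and 5 in ΔSE12313-b, and 1 higher and 2 lower between the deletions. At an adjusted p under 0.01, 3 genes were lower in ΔE2 than in ΔSE12313-b. The shares of all genes were not computed at these limits, for a pseudocount of 1 or for the replicate block. Under quantile normalization they were not computed for the DEGs or between the deletions. These counts therefore cannot be set against a background. With the replicate block, which the data did not bear out as a pairing, 3 genes were lower in ΔE2 than in ΔSE12313-b. DERL1 in ΔE2 (-0.026) and SEL1L in ΔSE12313-b (-0.026) changed sign.

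Leaving out 1 library gave 2 to 3 upregulated DEGs, 10 to 17 genes that rose and medians of 0.33 to 0.37 in ΔE2. It gave 4 to 6 upregulated and 1 to 2 downregulated DEGs, 13 to 18 genes that rose and medians of 0.35 to 0.50 in ΔSE12313-b. Between the deletions 3 to 10 genes were lower in ΔE2, with medians from -0.19 to -0.041. In ΔE2 10 genes rose without control replicate 1. In ΔSE12313-b 1 downregulated DEG was left without control replicate 2. Between the deletions 3 genes were lower without ΔE2 replicate 1 or without ΔSE12313-b replicate 1 and 10 without ΔSE12313-b replicate 2, and the median was -0.056 without ΔE2 replicate 1, -0.19 without ΔSE12313-b replicate 2 and -0.041 without ΔSE12313-b replicate 3. Fits without a control replicate assume that the lone control varies like the other groups. The shares of all genes were not computed for fits with 1 library left out, so their counts have no background. The causes were not tested.

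Changes of sign in single genes were the following. In ΔE2, quantile normalization gave HSP90B1 -0.074, HYOU1 -0.14, PDIA3 -0.21, PDIA4 -0.11, PDIA6 -0.085, DERL1 -0.28 and NUCB2 -0.18. Centring gave PDIA3 -0.0050, DERL1 -0.15 and NUCB2 -0.030. With 1 library left out DERL1 ran from -0.081 (without ΔE2 replicate 3) to 0.060, and was -0.0013 without control replicate 1, and NUCB2 ran from -0.0077 (without ΔE2 replicate 2) to 0.23. In ΔSE12313-b, quantile normalization gave HSPA5 -0.12, HSP90B1 -0.0070, PDIA3 -0.16, PDIA6 -0.087, SEL1L -0.37, DERL1 -0.080, EDEM1 -0.29, NUCB2 -0.088 and WFS1 -0.044. Centring gave SEL1L -0.25, EDEM1 -0.13 and WFS1 -0.064, and with 1 library left out SEL1L ran from -0.11 (without ΔSE12313-b replicate 3) to 0.16. Of the values of single genes counted under the alternatives, 1221 kept direction and side of the threshold, 128 lost the threshold, 10 gained it and 28 changed sign. Between the deletions, these counts leave out the genes that did not pass on the deposited scale. Of those, ERN1, CREB3L2, DNAJB9, HERPUD1 and SYVN1 passed after centring, all higher in ΔE2 (limma, adjusted p from 0.0240 to 0.0398).

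The limits are the 2 control libraries, the clonal origin of every deletion library, and the unknown strand handling. RNA levels do not show sensor activity, XBP1 splicing, translation or protein. Depth limits the low genes, such as SDF2L1, EIF2AK3 and CRELD2, and DERL3 could not be tested.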
